A study of Mus musculus with 6 samples.

Results

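Transcripts of plasminogen activators, serpins and related genes were followed in NIH/3T3 cells, an established mouse fibroblast line, after treatment with TGF-β1 and BI6727. The 7 genes, chosen by name from the 54752 genes in the count table, were the plasminogen activators Plau and Plat, the receptor Plaur, the serpins Serpine2, Serpinb2 and Serpinf1, and the serine protease Prss23. Vehicle cells received PBS for 72 h. TGF-β1+DMSO cells received TGF-β1 at 1 ng/ml together with DMSO for 72 h, and TGF-β1+BI6727 cells received the same TGF-β1 with BI6727, an inhibitor of Polo-like kinase 1, at 5 μM. Each group had 2 RNA-seq libraries from 1 cell line, all grown in complete medium without a separate DMSO control for the vehicle cells, so TGF-β1 and DMSO cannot be told apart in the comparisons with vehicle.

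Plasminogen activators are secreted serine proteases that cut plasminogen into plasmin, a protease of fibrin and of extracellular matrix that also releases growth factors from matrix. Urokinase works largely at the cell surface on its receptor, whereas tissue-type activator is best known for its action on fibrin. Serpins are suicide inhibitors that trap their target protease in a covalent complex, and fibroblasts release both activators and inhibitors during wound repair.

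With TGF-β1 and DMSO, the genes moved in different directions. Plau, Plaur and Prss23 rose by 2.93-fold, 3.84-fold and 7.37-fold over vehicle, Serpinb2 rose 11.6-fold from a very low level, and Serpine2 fell 2.24-fold. Plat and Serpinf1 did not pass the threshold of an adjusted p below 0.01 and a fold change above 2. No gene of the 7 passed it between TGF-β1+BI6727 and TGF-β1+DMSO, and the largest shift there among the 6 genes above the expression filter, at least 10 CPM in more than 3 libraries, was in Prss23, whose TGF-β1+BI6727 level was 0.773 times that in TGF-β1+DMSO.

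The libraries held between 18362378 and 24452153 counts. The TGF-β1+DMSO replicates stood apart from each other. The SD of their log2 difference over genes was 0.377, against 0.163 between vehicle replicates and 0.147 between TGF-β1+BI6727 replicates. Results that rest on this group are therefore also given without each of its libraries. Of 10 fibroblast markers, 9 passed the filter, with summed normalized counts per unit of library size (CPM) of 8460 to 8780 in vehicle, 7980 to 10500 in TGF-β1+DMSO and 8400 to 8440 in TGF-β1+BI6727. None of the 6 epithelial, 4 endothelial or 5 leukocyte markers passed it, their summed levels stayed at or below 2.08, 3.77 and 4.69 CPM, and Krt18, Krt5, Kdr, Adgre1 and Cd3e had 0 counts in every library. In such bulk samples, fewer cells that express a gene and less RNA per cell cannot be told apart. The labels did not say whether replicates were separate cultures, so the p-values measure only the spread between these libraries.

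Plau encodes urokinase-type plasminogen activator (ENSMUSG00000021822.3, mm10 chromosome 14, 20836660 to 20843385, plus strand). Its normalized level was 12.5 and 15.4 CPM in vehicle, 36.2 and 45.6 CPM in TGF-β1+DMSO, and 31.3 and 32.5 CPM in TGF-β1+BI6727. Both TGF-β1-treated groups lay wholly above vehicle. The log2 fold change of TGF-β1+DMSO over vehicle was 1.55 (SE 0.17, 95% interval 1.15 to 1.95, adjusted p = 0.00101, edgeR quasi-likelihood test). That of TGF-β1+BI6727 over vehicle was 1.19 (SE 0.17, adjusted p = 0.00286, same test), or 2.29-fold. The TGF-β1+BI6727 libraries lay below both TGF-β1+DMSO libraries, by a log2 difference of -0.36 (95% interval -0.74 to 0.02, adjusted p = 0.745, same test). Without TGF-β1+DMSO replicate 1 or 2 this difference was -0.51 or -0.19, below 2-fold in each case. The rise in TGF-β1+DMSO no longer passed the threshold without vehicle replicate 1 (1.40, adjusted p = 0.0264) or 2 (1.71, adjusted p = 0.0139), and that in TGF-β1+BI6727 when any single library of the 2 compared groups was left out (1.05 to 1.35, adjusted p up to 0.0498), in edgeR's quasi-likelihood test.

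Plaur encodes the urokinase receptor, a membrane-anchored protein that holds urokinase at the cell surface (ENSMUSG00000046223.10, chromosome 7, 24462484 to 24475968, plus strand). Its level was 79.5 and 81.6 CPM in vehicle, 271.9 and 346.7 CPM in TGF-β1+DMSO, and 301.1 and 299.3 CPM in TGF-β1+BI6727. The vehicle replicates nearly coincided, while the TGF-β1+DMSO replicates lay on either side of the TGF-β1+BI6727 pair. The log2 fold change over vehicle was 1.94 (SE 0.13, 95% interval 1.63 to 2.25, adjusted p = 0.000134, edgeR quasi-likelihood test) in TGF-β1+DMSO. It was 1.90 (SE 0.13, 3.73-fold, adjusted p = 0.000149, same test) in TGF-β1+BI6727. The difference between the treated groups was -0.04 on the log2 scale, with a 95% interval of -0.34 to 0.25, and it became -0.21 or 0.13 without TGF-β1+DMSO replicate 1 or 2.

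Plat encodes tissue-type plasminogen activator (ENSMUSG00000031538.6, chromosome 8, 22757727 to 22782844, plus strand). Its level was 58.8 and 50.2 CPM in vehicle, 62.8 and 49.6 CPM in TGF-β1+DMSO, and 64.4 and 70.0 CPM in TGF-β1+BI6727. The vehicle and TGF-β1+DMSO groups overlapped, and the TGF-β1+BI6727 libraries were above all others. TGF-β1+DMSO differed from vehicle by a log2 fold change of 0.04 (SE 0.15, 95% interval -0.30 to 0.39, adjusted p = 0.846, edgeR quasi-likelihood test). This interval excluded changes of 2-fold or more, but the sign turned with the library left out, to -0.07 without vehicle replicate 2 and -0.14 without TGF-β1+DMSO replicate 1. TGF-β1+BI6727 exceeded TGF-β1+DMSO by 0.26 on the log2 scale (95% interval -0.09 to 0.60, adjusted p = 0.772, same test). Without TGF-β1+DMSO replicate 1 or 2 this difference was 0.44 or 0.09, below 2-fold in each case.

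**Figure D1:**
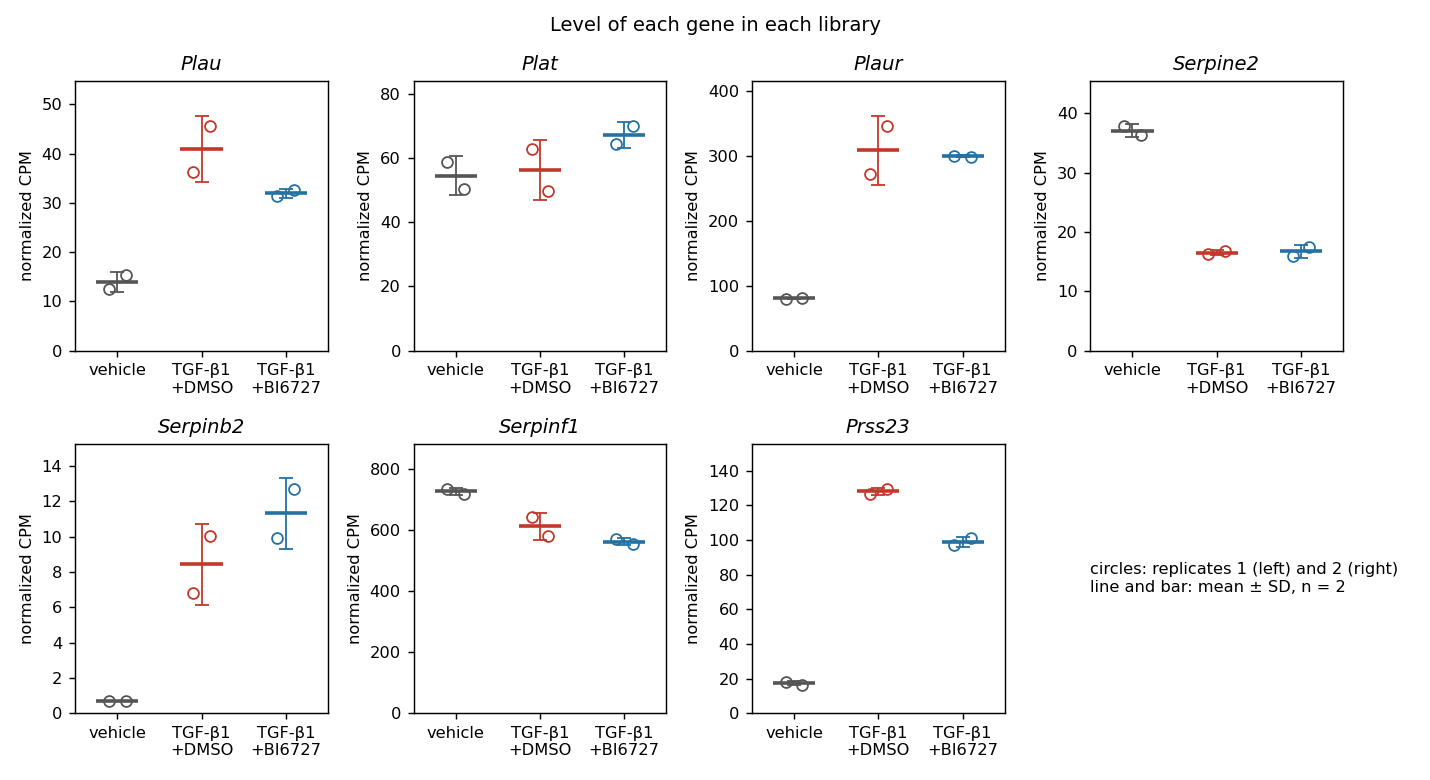
Normalized level (CPM, linear axes from 0, scaled separately for each gene) of the 7 genes in the vehicle, TGF-β1+DMSO and TGF-β1+BI6727 libraries; circles are replicates, and lines with bars are the mean ± SD (n = 2). Plau, Plaur, Serpinb2 and Prss23 lay higher in all 4 TGF-β1-treated libraries than in vehicle, Serpine2 lay lower, and the TGF-β1+DMSO replicates of Plaur (271.9 and 346.7 CPM) enclosed those of TGF-β1+BI6727.

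Serpine2 encodes protease nexin-1, a serpin that binds heparin and inhibits thrombin, urokinase and tissue-type activator (ENSMUSG00000026249.10, chromosome 1, 79794197 to 79861180, minus strand). Its level was 37.9 and 36.3 CPM in vehicle, 16.2 and 16.9 CPM in TGF-β1+DMSO, and 16.0 and 17.5 CPM in TGF-β1+BI6727. All 4 treated libraries were below both vehicle libraries. The log2 fold change was -1.16 (SE 0.13, 95% interval -1.47 to -0.86, adjusted p = 0.00112, edgeR quasi-likelihood test) in TGF-β1+DMSO and -1.14 (SE 0.13, adjusted p = 0.00107) in TGF-β1+BI6727. The treated groups overlapped each other, with a log2 difference of 0.02 (95% interval -0.29 to 0.33). The fall in TGF-β1+DMSO no longer passed the threshold without vehicle replicate 1 (adjusted p = 0.0247) or 2 (adjusted p = 0.0186), edgeR's quasi-likelihood test, although the fold change stayed at -1.14 and -1.19. In TGF-β1+BI6727 the call was lost when any single library of the compared groups was left out (-1.22 to -1.08, adjusted p up to 0.0242, same test).

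Serpinb2 encodes plasminogen activator inhibitor 2, a serpin that inhibits urokinase and is found largely inside cells (ENSMUSG00000062345.10, chromosome 1, 107511423 to 107535478, plus strand). It had 14 and 16 counts in vehicle, 141 and 209 in TGF-β1+DMSO, and 178 and 307 in TGF-β1+BI6727. These were 0.727 and 0.728 CPM, 6.81 and 10.1 CPM, and 9.90 and 12.7 CPM. The gene was below the expression filter, and its test came from a fit with the looser filterByExpr filter on 14604 genes. There the log2 fold change over vehicle was 3.53 (SE 0.31, 95% interval 2.82 to 4.25, adjusted p = 0.00015, edgeR quasi-likelihood test) in TGF-β1+DMSO and 3.97 (SE 0.31, 15.6-fold, adjusted p = 7.51e-05) in TGF-β1+BI6727. In that fit 2.75% and 2.51% of genes were called higher in these comparisons. The treated groups overlapped, and their log2 difference of 0.44 had a 95% interval of -0.10 to 0.98. Of the exonic length of Serpinb2, 12.4% overlapped Serpinb10 on the same strand, which had 0 counts in 5 libraries and 2 in TGF-β1+BI6727 replicate 2.

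Serpinf1 encodes pigment epithelium-derived factor, a secreted serpin that does not inhibit proteases and is known as an inhibitor of angiogenesis (ENSMUSG00000000753.15, chromosome 11, 75409769 to 75422701, minus strand). Its level was 735.3 and 717.3 CPM in vehicle, 643.9 and 579.8 CPM in TGF-β1+DMSO, and 569.9 and 553.1 CPM in TGF-β1+BI6727. The groups did not overlap, and vehicle was the highest. The log2 differences were small: -0.25 (SE 0.10, adjusted p = 0.127, edgeR quasi-likelihood test) for TGF-β1+DMSO against vehicle and -0.12 (SE 0.10, adjusted p = 0.849) for TGF-β1+BI6727 against TGF-β1+DMSO. Against vehicle, TGF-β1+BI6727 was at -0.37 (95% interval -0.61 to -0.13, adjusted p = 0.0385, same test), which passed neither the p threshold of 0.01 nor the fold threshold of 2.

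Prss23 encodes a secreted serine protease whose targets are poorly known (ENSMUSG00000039405.7, chromosome 7, 89507783 to 89527187, minus strand). Its level was 18.1 and 16.7 CPM in vehicle, 126.7 and 129.7 CPM in TGF-β1+DMSO, and 97.1 and 101.1 CPM in TGF-β1+BI6727. The 3 groups were separate, with TGF-β1+BI6727 between the others. The log2 fold change of TGF-β1+DMSO over vehicle was 2.88 (SE 0.10, 95% interval 2.64 to 3.13, adjusted p = 2.26e-05, edgeR quasi-likelihood test), which ranked 28 from the highest of 9518 genes. TGF-β1+BI6727 was higher than vehicle by 2.51 (SE 0.10, 5.70-fold, adjusted p = 2.15e-05, same test). Between the treated groups the log2 difference was -0.37 (SE 0.095, 95% interval -0.59 to -0.15). Its unadjusted p of 0.00538 became 0.583 after adjustment over all genes in edgeR's quasi-likelihood test. The difference was -0.38 or -0.37 without TGF-β1+DMSO replicate 1 or 2, below 2-fold in each case. Of the exonic length of Prss23, 22.9% overlapped the antisense gene Prss23os, which had 0 to 6 counts in each library.

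**Figure D2:**
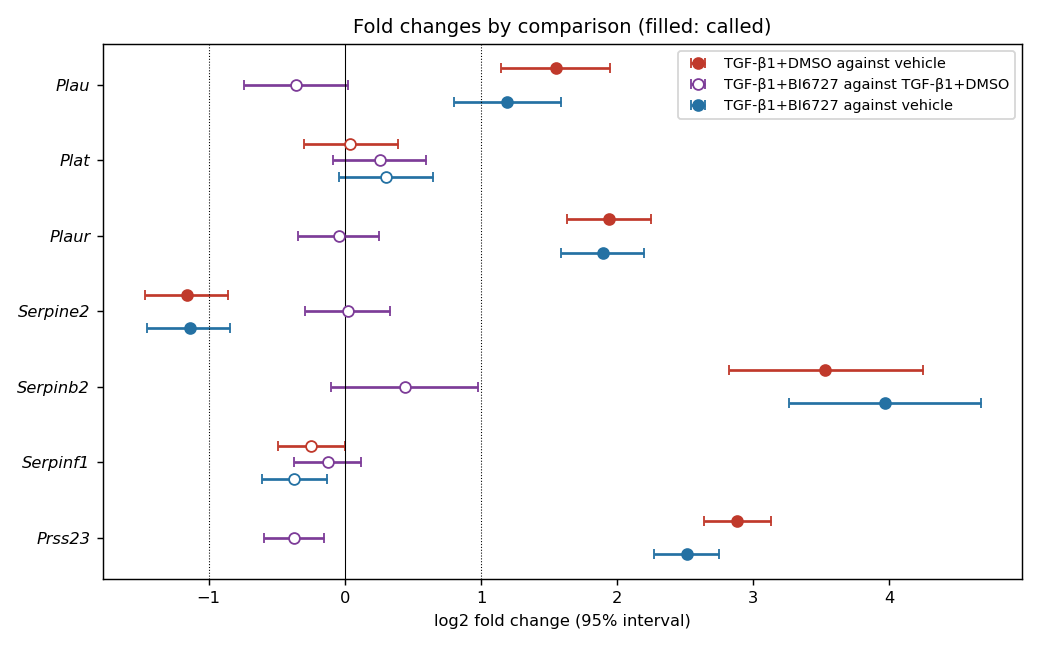
Log2 fold change with its 95% interval (horizontal axis) of each gene in the 3 comparisons; filled points passed adjusted p below 0.01 and a fold change above 2, and dotted lines mark 2-fold. Serpinb2 is from the fit with the looser filter; the points for both treated groups against vehicle lie close together for Plaur (1.94 and 1.90) and Serpine2 (-1.16 and -1.14).

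Of the 7 genes, 6 passed the filter. Of these, 3 were called higher and 1 lower in TGF-β1+DMSO against vehicle, where 2.56% of the 9518 genes tested were called higher and 2.53% lower. Without overlap between the groups, 3 were higher and 2 lower, against 29.8% and 33.1% of all genes. The same numbers, 3 higher and 1 lower, were called in TGF-β1+BI6727 against vehicle, where 2.34% and 2.96% of all genes were called. Without overlap there, 4 were higher and 2 lower, against 38.4% and 38.3%. Without TGF-β1+DMSO replicate 1 or 2, its log2 fold change over vehicle was 1.70 or 1.38 for Plau, 2.10 or 1.77 for Plaur, 2.89 or 2.88 for Prss23, 3.78 or 3.24 for Serpinb2, -1.14 or -1.18 for Serpine2 and -0.33 or -0.16 for Serpinf1. Each of these fits left TGF-β1+DMSO with 1 library and so without a spread of its own, so only the fold changes are given here. The comparisons with vehicle share the vehicle libraries and are not independent. The median log2 fold changes of the 6 genes were 0.80 and 0.75, against -0.005 and 0.003 over all genes tested.

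In TGF-β1+BI6727 against TGF-β1+DMSO, 0 of the 6 genes were called by edgeR's quasi-likelihood test and 0 by DESeq2, as were 0.0% of all genes by edgeR. At an unadjusted p below 0.05, 1 of the 6, Prss23, passed, against 6.68% of all genes. Without overlap between the groups, Plat was higher, and Plau, Prss23 and Serpinf1 were lower, against 17.0% of all genes higher and 17.1% lower. Without TGF-β1+DMSO replicate 1 or 2, the log2 difference of Serpinb2 was 0.19 or 0.72 and that of Serpinf1 was -0.04 or -0.21. The median over the 6 genes was -0.08, against -0.003 over all genes. With 2 libraries against 2, an exact permutation test of a single gene cannot give a p below 0.333.

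**Figure D3:**
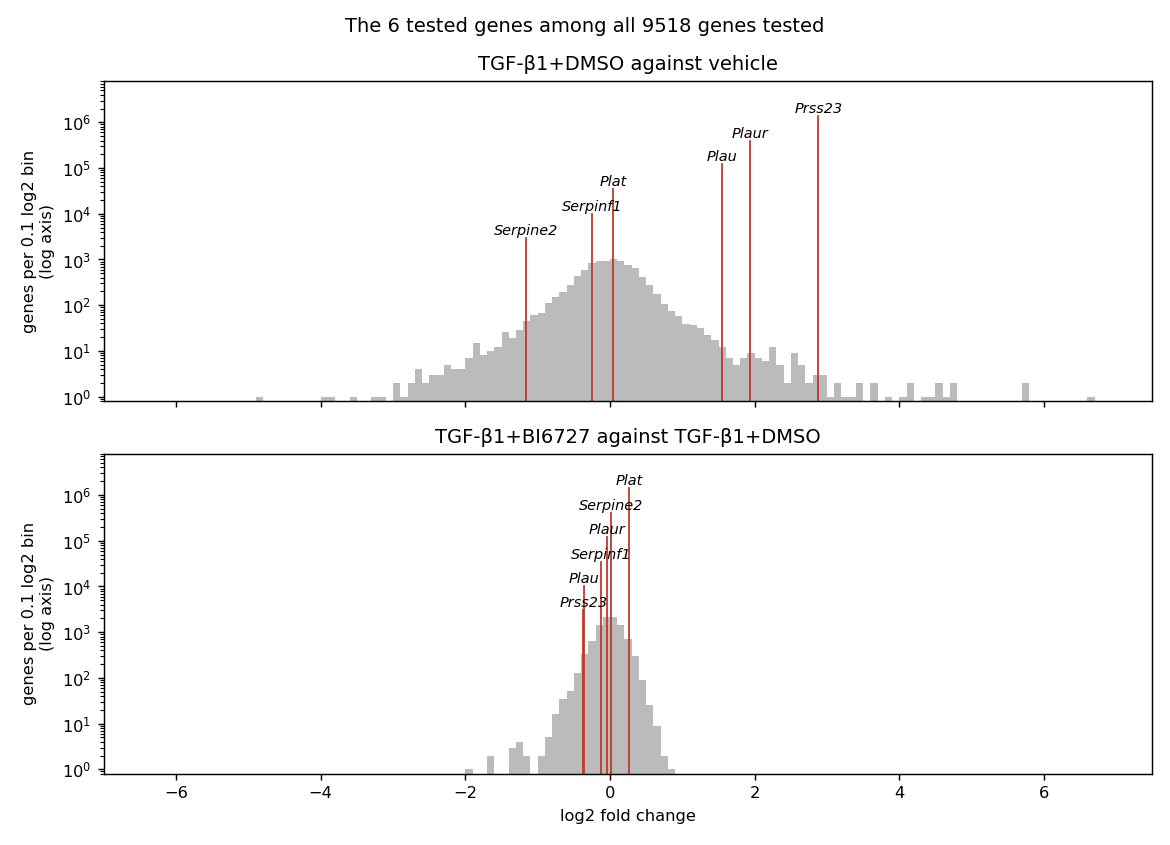
Histograms of the log2 fold change of all 9518 genes tested (horizontal axis, 0.1 per bin, vertical log axis of the number of genes), with lines at the 6 genes that passed the filter; line height only separates the labels. Against vehicle, Prss23 (2.88), Plaur (1.94) and Plau (1.55) lie in the upper tail and Serpine2 (-1.16) in the lower, whereas all 6 lie between -0.37 and 0.26 in TGF-β1+BI6727 against TGF-β1+DMSO.

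Per kilobase of exon (RPKM), the order of the 7 genes changed between vehicle and the treated groups. In vehicle, Serpinf1 was highest at 307.9 RPKM, followed by Plaur (30.8), Plat (8.74), Plau (5.89), Prss23 (4.62), Serpine2 (4.47) and Serpinb2 (0.310). Only Prss23 and Serpine2 overlapped as neighbours in this order. In TGF-β1+DMSO the order was Serpinf1 (259.4 RPKM), Plaur (118.2), Prss23 (34.0), Plau (17.3), Plat (9.01), Serpinb2 (3.59) and Serpine2 (2.00). No neighbours overlapped, and TGF-β1+BI6727 gave the same order, from 238.0 RPKM for Serpinf1 to 2.02 RPKM for Serpine2. Serpinf1 thus made up 84.9% ± 0.236 (SD, n = 2) of the summed RPKM of the 7 genes in vehicle, 58.5% ± 4.85 in TGF-β1+DMSO and 58.0% ± 0.833 in TGF-β1+BI6727. Plaur made up 8.49%, 26.6% and 28.0%.

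The balance between the activators and between the inhibitors was described by ratios of RPKM. Plau stood at 0.561 and 0.807 times Plat in vehicle, 1.52 and 2.42 times in TGF-β1+DMSO, and 1.28 and 1.23 times in TGF-β1+BI6727. Per length, Plat was thus the more abundant activator transcript in both vehicle libraries and Plau in all 4 treated libraries. This switch rests on exonic lengths of 2367 bases for Plau and 6241 for Plat, since Plat exceeded Plau by CPM in all 6 libraries. Together Plau and Plat summed to 14.6 ± 0.118 RPKM (SD, n = 2) in vehicle, 26.3 ± 1.33 in TGF-β1+DMSO and 24.3 ± 0.999 in TGF-β1+BI6727. Per length, the transcript of the receptor remained more abundant than that of its ligand. Plaur was 5.75 and 4.80 times Plau in vehicle, 6.80 and 6.88 times in TGF-β1+DMSO, and 8.69 and 8.32 times in TGF-β1+BI6727. The groups did not overlap in this ratio.

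The order of the inhibitors depended on the length scaling. By CPM, Serpinb2 was below Serpine2 in all 6 libraries. Per length, with exonic lengths of 2349 bases for Serpinb2 and 8287 for Serpine2, Serpinb2 was 0.0678 and 0.0708 times Serpine2 in vehicle, 1.48 and 2.11 times in TGF-β1+DMSO, and 2.19 and 2.56 times in TGF-β1+BI6727. Their sum varied less, from 4.78 ± 0.135 RPKM (SD, n = 2) in vehicle to 5.59 ± 1.03 in TGF-β1+DMSO and 6.83 ± 0.977 in TGF-β1+BI6727. Set against the summed activators, Serpine2 was 0.310 and 0.301 in vehicle, 0.0773 and 0.0747 in TGF-β1+DMSO, and 0.0818 and 0.0847 in TGF-β1+BI6727. These are ratios of transcripts, and protein and activity were not analysed here.

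**Figure D4:**
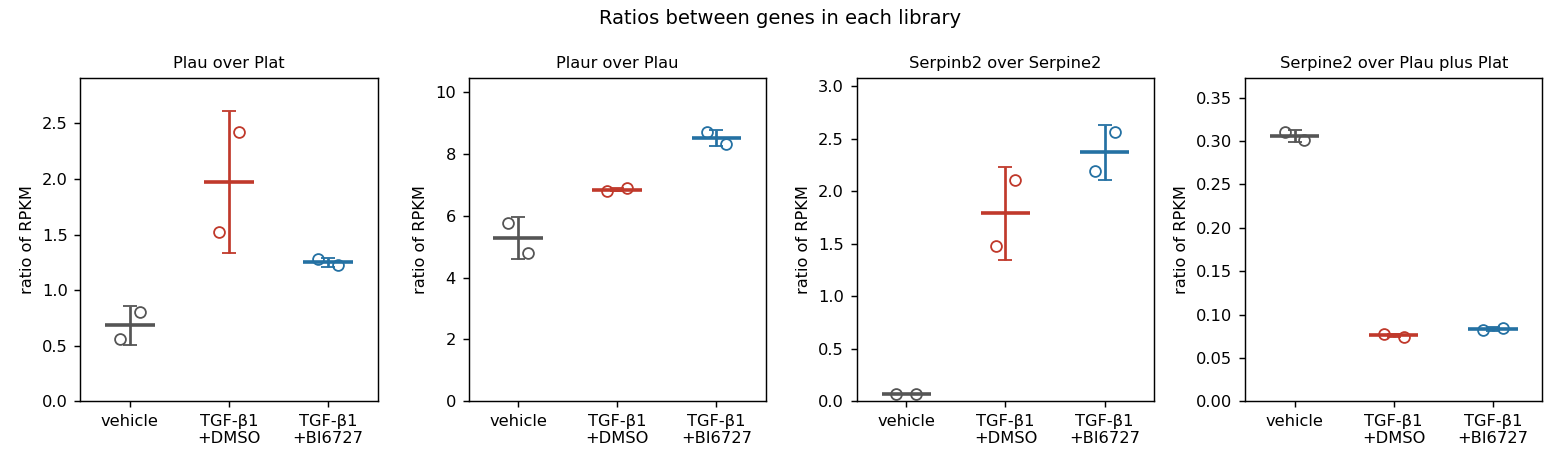
Ratios of RPKM between genes of the activation system in each library (vertical axes from 0, scaled separately), with circles for replicates and lines with bars for the mean ± SD (n = 2). Plau over Plat was below 1 in both vehicle libraries and above 1 in all 4 treated libraries, and Serpinb2 over Serpine2 went from 0.0678 and 0.0708 in vehicle to 1.48 or more; by CPM, without length scaling, Plat exceeded Plau and Serpine2 exceeded Serpinb2 in all 6 libraries.

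Promoter sequences from RefSeq (GRCm38.p6, 250 bases before a transcript start) were found for 5 of the 7 genes, Serpine2, Serpinb2, Serpinf1, Plaur and Prss23, over 12 starts. They were searched on both strands for the letters TGANTCA, which AP-1 factors are known to bind. These letters occurred for Serpinb2, Plaur and Prss23, 3 of the 5 genes, against 7.82% of 27025 genes and 6.75% of 32851 starts. Counted by start, they were in 5 of the 12 windows. For Prss23 they were in the windows of 2 of 7 starts, which overlap and share the same match. The windows of both Serpinb2 starts also overlap and share the same match. A window that holds the letters is shown for each of the 3 genes, 5′ to 3′ in the direction of transcription and with the match in capitals. The windows are Serpinb2 chr1:107511173-107511422 (plus strand, match starting 94 bases before the start), Plaur chr7:24462233-24462482 (plus strand, 69 bases before) and Prss23 chr7:89518182-89518431 (minus strand, 169 bases before).
Serpinb2: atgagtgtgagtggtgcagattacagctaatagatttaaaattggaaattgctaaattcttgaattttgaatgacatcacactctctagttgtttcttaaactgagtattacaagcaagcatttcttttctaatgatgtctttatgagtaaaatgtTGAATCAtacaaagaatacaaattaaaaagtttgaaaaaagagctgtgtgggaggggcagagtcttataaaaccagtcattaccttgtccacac
Plaur: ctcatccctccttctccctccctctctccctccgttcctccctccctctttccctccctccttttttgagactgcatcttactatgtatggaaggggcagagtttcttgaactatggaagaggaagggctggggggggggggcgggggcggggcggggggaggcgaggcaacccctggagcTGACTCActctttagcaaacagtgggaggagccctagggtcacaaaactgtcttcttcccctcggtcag
Prss23: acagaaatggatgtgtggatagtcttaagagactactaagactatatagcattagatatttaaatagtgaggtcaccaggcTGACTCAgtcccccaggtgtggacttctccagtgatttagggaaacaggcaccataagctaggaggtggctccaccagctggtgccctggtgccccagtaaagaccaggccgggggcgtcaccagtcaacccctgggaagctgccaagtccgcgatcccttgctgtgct
The narrower TGACTCA form was found for Plaur and Prss23, against 5.16% of genes. The TATAAA letters of a TATA box occurred for Serpinb2 alone, against 14.3% of genes. The GC box letters GGGCGG occurred for Plaur, Prss23 and Serpine2, against 35.4% of genes, and the SMAD box letters CAGAC for Prss23, Serpine2 and Serpinf1, against 45.8%. A match describes the letters only, and no factor binding was measured.

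Related genes of the pathway were read from 4 lists in TGF-β1+DMSO against vehicle, where 2.56% of all genes tested were called higher and 2.53% lower, with a median log2 fold change of -0.005. Of 21 genes for plasminogen receptors, plasmin substrates and clearance, 16 were tested, 2 rose, 1 fell and 13 were not called, with a median log2 fold change of -0.18. Itgb3, the integrin β3 subunit, rose by 3.31 (SE 0.24, adjusted p = 0.000177, edgeR quasi-likelihood test). Its level was 6.18 and 4.73 CPM in vehicle and 35.5 to 64.7 CPM in the treated libraries. It thus passed the filter only through the treated groups, and a gene high in vehicle alone could not have passed. Itga5, the fibronectin receptor α5 subunit, rose by 1.56 (SE 0.14, adjusted p = 0.000441, same test). Hgf, a growth factor whose precursor is cut by serine proteases, fell by 1.41 on the log2 scale (SE 0.17, adjusted p = 0.00158). The calls of Itga5 and Hgf were lost without vehicle replicate 1 (adjusted p = 0.0199 and 0.0286) or 2 (adjusted p = 0.0142 and 0.0125), in edgeR's quasi-likelihood test. The plasminogen-binding genes Plgrkt (-0.25), S100a10 (-0.15) and Anxa2 (-0.24) and the clearance receptor Lrp1 (-0.29) did not pass the threshold. Neither did Eno1 (0.26), Lrp8 (0.26), Igf2r (0.43), Itgav (0.66) and Itgb1 (0.72) of the same list, which lay in the other direction.

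Of 63 other serpin genes, 8 were tested, of which 3 rose, 2 fell and 3 were not called, with a median of 0.24. Serpina3h and Serpina3i were higher by 1.42 (SE 0.0916) and 1.21 (SE 0.16), while Serpina3g and Serpina3n were lower, at -2.40 (SE 0.15) and -2.28 (SE 0.15). The adjusted p-values of these 4 genes lay between 9.58e-05 and 0.00221 in edgeR's quasi-likelihood test. They belong to a cluster of related genes that share part of their sequence. Of their 50-base windows, 21.9%, 15.9%, 15.5% and 6.9%, in the order named, also are found in other genes, which leaves their values uncertain. The call of Serpina3i was lost without vehicle replicate 1 or 2 (adjusted p = 0.0311 and 0.0414, same test). Of the 55 serpin genes outside the filter, 33 had at most 3 counts in any library. The filter cannot pass a gene that is high in vehicle alone, and with filterByExpr 17 other serpins were tested, of which 3 were called higher and 4 lower, against 2.75% and 3.23% of all genes. The 2 added falls, named after their values were seen, were in Agt, which encodes angiotensinogen, and Serpina3f. Agt had 229 and 160 counts in vehicle and 10 and 0 in TGF-β1+DMSO (-5.26, adjusted p = 0.00166, same test), and Serpina3f had 283 and 273 against 66 and 37 (-2.43, adjusted p = 0.0047).

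Of 27 other serine protease genes, 4 were tested, with Furin, a proprotein convertase, higher by 1.12 (SE 0.14) and C1s1, a complement protease, lower at -3.20 (SE 0.20). With filterByExpr, 13 were tested, and 3 were called higher and 2 lower, against 2.75% and 3.23% of all genes. The value of C1s1 is uncertain, because 35.1% of its 50-base windows recur elsewhere among the genes. Of 26 coagulation and protease-activated receptor genes, 5 were tested. Procr, the endothelial protein C receptor, was higher by 1.25 (SE 0.14) and Pros1, encoding the anticoagulant protein S, was lower at -1.05 (SE 0.14). The calls of Furin, Procr and Pros1 were each lost without vehicle replicate 1 or 2 (adjusted p between 0.0163 and 0.0418, edgeR's quasi-likelihood test). In TGF-β1+BI6727 against TGF-β1+DMSO, 0 genes of the 4 lists were called by edgeR's quasi-likelihood test. A call of Lrp1 as higher came from the fit without TGF-β1+DMSO replicate 1. That fit left the group with 1 library and no spread of its own. The share of all genes called in it was not worked out, so the call is not read as a result.

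Genes most like each chosen gene above the filter, over the 6 libraries, were found by root mean square difference in centred log2 CPM. For Prss23 the nearest were Pmepa1 (0.135) and Il11 (0.149). For Plau they were Lurap1l (0.0644), Relt (0.0865) and Csrnp1 (0.0899), and for Plaur they were Gm13453 (0.0705), Atp6v1g1 (0.0827) and Rdh10 (0.0988). Of the 50-base windows of Gm13453, 67.5% occur in other genes. Serpine2 was nearest to Nrn1 (0.0497), Fosl2 (0.0736) and Ivd (0.0751). Plat was nearest to Usp37 (0.0471), Sema4b (0.0475) and Dnm2 (0.0485), and Serpinf1 to Fem1a (0.0186), Ephb4 (0.0271) and Spata2 (0.0300). The log2 range over the 6 libraries was 0.495 for Plat and 0.411 for Serpinf1, against 2.96 for Prss23, so the distances were measured on a narrow scale for Plat and Serpinf1.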

How the data were processed

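RNA of NIH/3T3 cells was sequenced as single-end 50-base reads (BGISEQ-500), 2 libraries in each of 3 groups. The authors deposited raw read counts per gene, aligned with Subjunc and counted with featureCounts (Subread 1.6.4) on mm10 with Gencode annotation. The strand setting is not given in the sources used here. The 7 genes and the related lists were chosen with earlier results of these data known. The 9518 genes that reached 10 CPM in more than 3 libraries were tested with edgeR 4.0.16 (R 4.3.3) by glmQLFit and glmQLFTest, with TMM scaling and all 6 libraries in 1 fit. Calls needed a Benjamini-Hochberg adjusted p below 0.01 over all genes and a fold change above 2. Normalized CPM used TMM, and RPKM also the exonic length in the file.

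All 7 genes were named. From each list, up to 4 called genes per direction were named by fold change, and for each filtered gene the 3 genes nearest over the libraries (prior count 1). The genes below the threshold named beside them were chosen after their values were seen. Not every gene selected in this way is reported here. On simulated counts with 200 genes changed 3-fold among 9518, 198 were recovered in TGF-β1+DMSO against vehicle and 200 in each of the other comparisons. Each gene had the same spread in all libraries there, so the wider spread of the TGF-β1+DMSO replicates was not simulated. Shifts under 3-fold were not simulated either, so the recovery of small differences between the treated groups is unknown. Replicates differed beyond counting error (chi-square per degree of freedom 6.53 to 82.3), so none was a copy of the other's counts. This does not show whether they were separate cultures. Alternatives were DESeq2 1.42.0, limma 3.58.1 (voom), scaling, filters, thresholds, length offsets, pairs of groups, a replicate block and leaving out each library. A crossed block, and length offsets with a block, were added after seeing the data.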

Additional observations from a re-analysis of the deposited data

Results flagged for a closer look

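Serpinb2 lay outside the main measurement, since too few libraries reached the 10 CPM of the expression filter. It stood at 0.727 and 0.728 normalized CPM in vehicle, 6.81 and 10.1 in TGF-β1+DMSO, and 9.90 and 12.7 in TGF-β1+BI6727. It is listed because its counts rose above the vehicle level in all 4 treated libraries, with a log2 fold change of 3.53 in TGF-β1+DMSO against vehicle in the fit with the looser filter. The groups of 2 libraries were too small for a search for outlying libraries.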

How the results depend on the processing

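Of 375 values of the 7 genes under alternatives, 355 kept their direction and their side of the threshold, 12 lost the call, 1 gained it and 7 turned sign. The number called lower was 1 in both comparisons with vehicle. In TGF-β1+DMSO against vehicle it ranged from 0 to 1 as single libraries were left out, with 0 without vehicle replicate 1 or 2. In TGF-β1+BI6727 against vehicle, the call of Serpine2 did not hold without either vehicle or either TGF-β1+BI6727 replicate. At an adjusted p below 0.05 with no fold minimum, the number called lower there was 2, as Serpinf1 (-0.37) joined Serpine2. The share of all genes called lower at that looser setting was not worked out, so the added call cannot be weighed. Leaving out a library of a compared pair leaves that group with 1 library, assumed to vary like the others, and fewer degrees of freedom. Without a TGF-β1+DMSO library the widest replicate spread leaves the fit, so calls kept or gained there are not tested against it. The signs that turned were those of values near 0. In TGF-β1+BI6727 against TGF-β1+DMSO, Serpine2 was at -0.06 with length offsets, with or without the replicate block, and ranged from -0.05 to 0.08 as libraries were left out (-0.00418 without TGF-β1+DMSO replicate 1, -0.05 without TGF-β1+BI6727 replicate 2), and Plaur ranged from -0.21 to 0.13. In TGF-β1+DMSO against vehicle, Plat ranged from -0.14 to 0.22, with -0.07 without vehicle replicate 2. The cause was not tested. With filterByExpr, other serpins called lower in TGF-β1+DMSO went from 2 to 4, and other serine proteases from 1 to 3 higher and from 1 to 2 lower, with more genes tested. In that fit 2.75% of all genes were called higher and 3.23% lower. Of the 4 lists' named genes, 14 calls were lost, all with a library left out. Itga5, Hgf, Serpina3i, Furin, Procr and Pros1 lost theirs without either vehicle replicate (adjusted p up to 0.0418, edgeR's quasi-likelihood test), and Furin (0.89) and Pros1 (-0.92) also fell under 2-fold without TGF-β1+DMSO replicate 1 and 2, respectively.

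Same-numbered replicates did not deviate together, with correlations of -0.11, -0.26 and 0.047 over the 3 pairs of groups, so the numbers were not taken to pair the libraries. With the replicate block, 3 genes were called higher and 1 lower against vehicle, as without it, and 0 between the treated groups. With the block crossed between replicates, added after seeing the data, the counts were again 3, 1 and 0.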
